A study of Mus musculus with 4 samples.

Results

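The respiratory chain was followed through 88 genes of the 26600 genes listed in all 4 deposited tables. They were chosen by symbol alone: the 13 protein-coding genes of the mitochondrial genome, and 75 nuclear genes whose symbols name a subunit or an assembly factor of complexes I to IV. Of the nuclear genes, 38 were complex I genes (Nduf), 7 were complex I assembly factors (Ndufaf), 4 encoded complex II (Sdha, Sdhb, Sdhc and Sdhd), 8 were complex III genes (Uqcr) and 18 were complex IV genes (Cox4 to Cox8). All 88 had a position in the GRCm38 annotation, and the nuclear genes lay on 19 chromosomes. Nuclear ATP synthase genes were not included because 1 of the tables names them otherwise.

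The respiratory chain sits in the inner mitochondrial membrane. Complex I takes electrons from NADH and complex II takes them from succinate, complex III passes them to cytochrome c, and complex IV, cytochrome c oxidase, hands them to oxygen, so that protons pumped by complexes I, III and IV can drive ATP synthase. The chain is built from 2 genomes: the mitochondrial genome encodes core subunits of complexes I, III and IV and of ATP synthase, and the nucleus encodes the rest, complex II entirely. Several nuclear subunits exist as isoform pairs in which 1 gene is used broadly and its paralog in particular tissues or under low oxygen. Chondrocytes of the growth plate lie in avascular cartilage and are known for glycolytic metabolism, and osteoclasts are known for abundant mitochondria.

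The data came from cells of the endosteal bone marrow that were sorted for tdTomato (Td+) and sequenced singly for RNA, from male Col2/Td mice of strain B6SJL/F1, in which Cre under a type II collagen promoter switches on the reporter. There was 1 library at each age, called 1M, 1.5M, 3M and 16M, from 2 mice aged 1 month and from 3 mice each aged 1.5, 3 and 16 months, pooled before sequencing. All groups carried the same reporter and none was treated. The sort took the brightest cells where no Td peak was seen, and it held chondrocytes, osteoblast-lineage and stromal cells together with many hematopoietic cells. With 1 library per age there was no replicate and no test between ages was possible, and classes were compared library by library, with no test over libraries run. Intervals in parentheses are 95% intervals that cover counting error only, and age cannot be told apart from library.

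Levels are given in CPM, the UMIs (unique transcript molecules) of a gene or gene set per 1000000 UMIs of a class of cells. Classes were built by clustering each library and named from marker genes, with "-like" for a cell type read from markers: AD-like (adipocyte lineage, Adipoq and Lepr), EMP-like and LMP-like (early and late mesenchymal progenitors), OB-like and Ocy-like (osteoblasts and osteocytes), CH-like (chondrocytes), mural-like, endothelial-like and hematopoietic classes. Each of the 55 class and library pairs with at least 20 cells led all other classes of its library in the summed level of its own markers, the narrowest lead being 1.06-fold, and 47 pairs held at least 50 cells. After the study's limits on genes and mitochondrial share, 8308, 5453, 4180 and 6143 barcodes remained at 1M, 1.5M, 3M and 16M, with medians of 6264 to 10280 UMIs. The limit of 5% mitochondrial UMIs was exceeded by 32.4% of barcodes at 16M and by 1.16% to 7.22% in the other libraries, and it bounds the mitochondrial values from above. The table of 16M listed 31054 genes and each of the others listed 27999, with 4454 genes found only at 16M and 1399 not found there, so gene list, library and age cannot be told apart at 16M. The 1M, 1.5M and 3M libraries shared 30 to 61 barcodes by pair, and 16M shared 1 or 2 with each of them. UMIs of hemoglobin genes and S100a8 and S100a9, which mark erythroid cells and neutrophils, summed to 10275, 499, 7222 and 859 CPM in AD-like cells in order of age.

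The promoters of an isoform pair of complex IV are shown because the rare paralog took its highest share in the same class in all 4 libraries: Cox8a is the broadly used subunit 8, and Cox8b, the isoform known from heart, muscle and brown fat, was highest in Ocy-like cells. Each sequence runs 5′ to 3′ from 250 bases before the start of the gene to 50 bases after it, from RefSeq on GRCm38.p6. Capitals mark the ETS core (CCGGAA, or TTCCGG on the other strand) in Cox8a and the TATA box (TATAAA) in Cox8b. The TATAAA of Cox8b, and the CCGGAA and the last TTCCGG of Cox8a, lie within the 50 bases after the start of the gene. Cox8a lies at chr19:7217567-7217866 and Cox8b at chr7:140900397-140900696, both on the minus strand.
Cox8a: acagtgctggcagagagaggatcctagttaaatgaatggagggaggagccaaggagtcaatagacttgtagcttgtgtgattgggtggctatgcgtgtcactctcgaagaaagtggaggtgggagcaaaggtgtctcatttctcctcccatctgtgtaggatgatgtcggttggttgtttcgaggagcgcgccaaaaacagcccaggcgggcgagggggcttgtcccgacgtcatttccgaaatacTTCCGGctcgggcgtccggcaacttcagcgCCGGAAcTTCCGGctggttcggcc
Cox8b: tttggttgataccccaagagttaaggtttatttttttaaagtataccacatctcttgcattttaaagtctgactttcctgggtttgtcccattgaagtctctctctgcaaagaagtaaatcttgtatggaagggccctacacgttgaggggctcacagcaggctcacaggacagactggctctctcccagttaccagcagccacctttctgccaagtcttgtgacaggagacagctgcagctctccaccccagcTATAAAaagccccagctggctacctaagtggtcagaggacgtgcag

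The Cox8a window held 3 ETS cores and no TATA box, whereas the Cox8b window held 1 TATA box and no ETS core. Over the 60 nuclear genes with a promoter in the same table, the ETS core was found in 33.3%, against 18.5% of all 17894 promoters. The core letters of the NRF1 site (TGCGCA, a palindrome), NRF1 being a transcription factor known for nuclear respiratory genes, was found in 26.7% against 9.84%. The core of the hypoxia element (ACGTG or GCGTG, both strands) was found in 60.0% against 49.0%, and the TATA box in 10.0% against 12.9%. These are matches of letters, not binding sites.

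The 75 nuclear genes together were highest in osteoclast-like cells and lowest in mature neutrophil-like cells. In osteoclast-like cells they summed to 36419 CPM at 1M (115 cells) and 39665 CPM at 3M (52 cells), 2.07-fold and 2.33-fold the level in AD-like cells of the same library. Every complex took part: at 1M the ratio of osteoclast-like to AD-like cells was 1.79 for complex I, 2.81 for complex II, 2.51 for complex III and 2.25 for complex IV, and at 3M complex II reached 3.87. Sdha, the flavoprotein subunit of complex II that oxidizes succinate, stood at 214 CPM in osteoclast-like cells at 1M and 224 CPM at 3M, above every other class of those libraries.

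**Figure D1:**
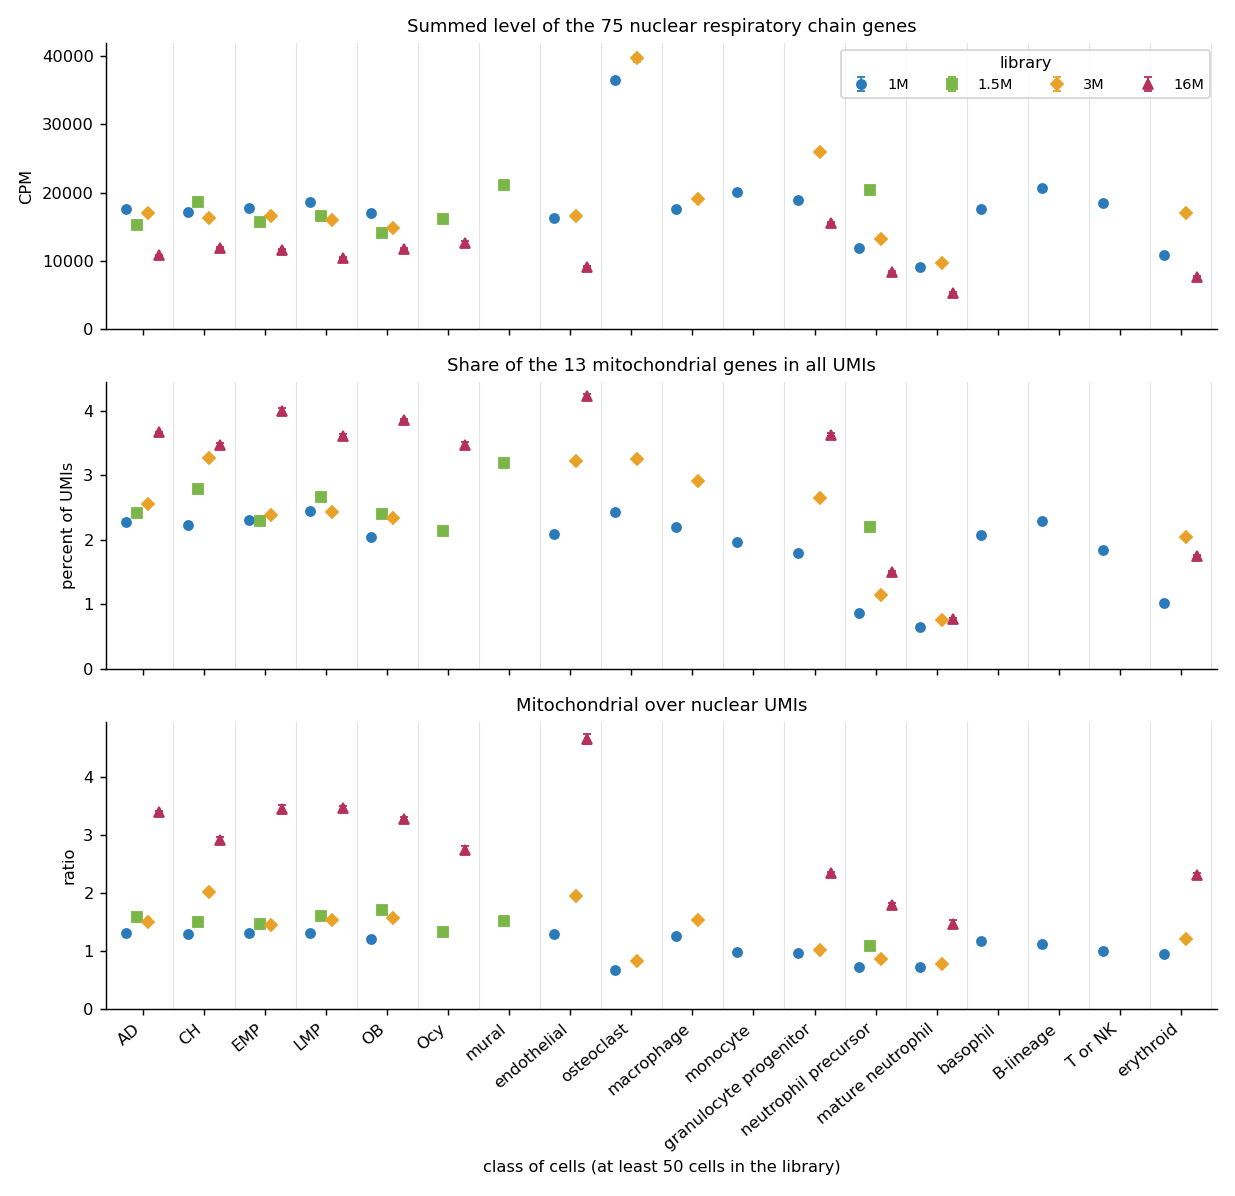
Summed level of the 75 nuclear genes in CPM (top), share of the 13 mitochondrial genes in all UMIs in percent (middle) and their ratio (bottom) for each class of at least 50 cells, with 1 point per library and 95% intervals for counting error. Osteoclast-like cells stand highest in the top panel at 36419 and 39665 CPM, mature neutrophil-like cells lowest in each library that has them, and the 16M points lie below the others in the top panel and above them in the bottom panel in every class.

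AD-like cells, the adipocyte lineage of this marrow, held the nuclear genes at 17589 CPM at 1M, 15293 CPM at 1.5M, 17015 CPM at 3M and 10797 CPM at 16M. Single AD-like cells varied around these levels, with the middle 50% of cells between 15392 and 18939 CPM at 1M and between 8830 and 12591 CPM at 16M. CH-like cells were close to AD-like cells, at 0.98-fold, 1.22-fold, 0.96-fold and 1.10-fold in the 4 libraries in order of age. Mural-like cells stood at 21981, 21110, 22916 and 13728 CPM, from 25, 63, 30 and 22 cells, above AD-like cells in all 4 libraries. The make-up of this sum varied little: over the 47 class and library pairs, complex I gave 40.5% to 51.6% of it, complex IV 32.8% to 40.9%, complex III 11.6% to 17.3%, complex II 1.48% to 3.51% and the assembly factors 0.52% to 1.16%.

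The 13 mitochondrial genes followed another order than the nuclear genes. Their share of all UMIs at 1M ran from 0.65% (0.645 to 0.656) in mature neutrophil-like cells to 2.44% in LMP-like cells, and osteoclast-like cells, which led in nuclear genes, were close to AD-like cells at 2.43% (2.41 to 2.45) against 2.28% (2.26 to 2.30). The mitochondrial UMIs of osteoclast-like cells were 0.668 of their nuclear respiratory UMIs, the lowest ratio of the 16 classes at 1M under the 5% limit, while AD-like cells had 1.30. At 3M the same ratio was 0.819 in osteoclast-like and 1.50 in AD-like cells. The osteoclast-like class changed with the limit, since cells were clustered anew under each. At 1M it had 115 cells, 123 when 10% was allowed and 195 when 30% was allowed, and at 3M 52 against 82. Only 11 barcodes of 1M lay above 10%, so the growth from 123 to 195 came mostly from cells that other settings placed elsewhere. The values with 30% allowed thus describe another set of cells. With 30% allowed, the mitochondrial share of osteoclast-like cells at 1M was 3.32% against 2.23% in AD-like cells, and the ratio was 1.02 at 1M and 1.24 at 3M. At 1M this was above mature neutrophil-like cells (0.601) and some other hematopoietic classes. It was below B-lineage-like (1.11), basophil-like (1.14) and macrophage-like cells (1.26). Spearman's rho between mitochondrial share and nuclear level over classes was 0.56 at 1M (16 classes), 0.36 at 1.5M (8 classes), 0.61 at 3M (12 classes) and 0.40 at 16M (11 classes), a description of classes that share a library and a denominator.

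In the neutrophil lineage the nuclear genes stepped down from progenitors to mature cells, and no member was at least 1.5-fold higher in mature cells than in precursors. Granulocyte progenitor-like cells, marked by Elane and Mpo, held 18910, 25911 and 15515 CPM at 1M, 3M and 16M. Neutrophil precursor-like cells held 11945, 13233 and 8381 CPM, and mature neutrophil-like cells 9141, 9742 and 5277 CPM. The order was the same in the 3 libraries, and the mitochondrial share had it too, at 1.80%, 0.86% and 0.65% at 1M. CPM is taken over all UMIs, and hemoglobin genes with S100a8 and S100a9 filled much of them. They summed to 77341, 16934 and 19890 CPM in progenitor-like cells at 1M, 3M and 16M. In precursor-like cells they summed to 234129, 288686 and 301077 CPM, and in mature cells to 276275, 316420 and 242252 CPM. What part this has in the order was not tested. Against precursors of the same library, mature neutrophil-like cells were at least 1.5-fold lower for 23 of 64 nuclear members at 1M, where 29.5% of all genes tested were, for 28 of 63 at 3M (background 33.8%) and for 41 of 62 at 16M (background 26.2%). At least 1.5-fold higher were 0 members in each library, against 7.96%, 17.0% and 31.6% of all genes. The 92 lower calls of the 3 libraries became 50 with a limit of 10% mitochondrial UMIs and 54 with a limit of 30% or at resolution 0.5, settings under which 16M gave no such comparison, so the 41 calls of 16M rest on a class that those settings did not give. Ndufa7, a complex I subunit, was the member that stood above 1 in all 3 libraries, with ratios of 1.11 to 1.25. The lower calls were not particular to the respiratory chain. Of 87 cytosolic ribosomal protein genes tested, 58, 68 and 67 were lower in mature cells at 1M, 3M and 16M, and 0, 0 and 1 higher. Here and in what follows, a gene was tested where it had a mean of at least 10 CPM over the compared classes.

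Lower in mature cells of all 3 libraries were 18 members. The share of all genes that were lower in all 3 is not given, so this count has no background of its own. Among the 18 were Ndufa4, named as a complex I subunit and now assigned to complex IV, and Uqcrc1, a core protein of complex III. Uqcrb, the ubiquinone-binding protein of that complex, and Ndufaf3, which assembles complex I, were others. Ndufa4 stood at 192 CPM in mature and 397 CPM in precursor cells at 1M, at 217 and 529 CPM at 3M, and at 113 and 257 CPM at 16M, ratios of 0.48 (0.46 to 0.51), 0.41 (0.36 to 0.47) and 0.44 (0.34 to 0.57). Mature cells were the lower in each library, and the intervals of the 3 ratios overlapped. Uqcrb had ratios of 0.63 (0.59 to 0.67) at 1M, 0.52 (0.46 to 0.58) at 3M and 0.16 (0.09 to 0.27) at 16M, where only 15 UMIs were counted in 142 mature cells.

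The isoforms linked to low oxygen marked CH-like and mural-like cells. The summed level of hypoxia response genes did not go with this in mural-like cells. It was 404, 450, 430 and 348 CPM in order of age, below AD-like cells at 532, 586, 496 and 681 CPM. In CH-like cells it was 1819, 1802, 816 and 1306 CPM. Cox4i2, on chromosome 2 from 152754173 to 152765037, is the alternative subunit 4 of complex IV, and Cox4i1 is the broad one. Cox4i2 gave 20.6% (19.7 to 21.5) of the pair's UMIs in CH-like cells at 1M, 39.9% (39.5 to 40.3) at 1.5M, 33.3% (32.4 to 34.2) at 3M and 40.4% (37.9 to 43.0) at 16M. In mural-like cells it gave 32.2%, 35.0%, 36.2% and 24.3% of the pair, and the value of 3M was 23.0% with a limit of 30% mitochondrial UMIs. AD-like cells followed with 10.4%, 10.4%, 8.72% and 5.55%, and LMP-like cells with 11.5%, 7.47%, 5.97% and 3.72%. EMP-like cells stayed between 0.784% and 2.96%, and OB-like cells between 0.829% and 5.78%.

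RNA that leaks into droplets sets a floor for such shares, which was read from neutrophil-like cells. Mature neutrophil-like cells gave a Cox4i2 share of 0.792% at 1M, 1.57% at 3M and 0.559% at 16M, and the neutrophil precursor-like cells of 1.5M, the only such class there, gave 5.73% (4.44 to 7.26). The CH-like, mural-like and AD-like shares lay above this level in each library. The 1.5M reference class held 77 cells and is less like the others. Its own markers summed to 39177 CPM, against 105045 to 144703 CPM in neutrophil precursor-like cells of the other libraries. The intervals of EMP-like cells in the libraries other than 1.5M, and of OB-like cells at 1.5M, overlapped those of neutrophil-like cells. EMP-like cells at 1.5M lay below them. These EMP-like and OB-like shares thus did not stand above the floor. Nor did the LMP-like cluster of 361 cells at 1.5M, at 6.20% (5.38 to 7.10), while the LMP-like cluster of 462 cells had 8.32% (7.55 to 9.14). A share also depends on the level of the partner gene, so the shares alone do not show that these UMIs are background. With every cell thinned to 3000 UMIs, a Cox4i2 UMI was seen in 34.7%, 63.8%, 51.1% and 52.2% of CH-like cells (59.8%, 85.1%, 64.6% and 75.2% before thinning), against 1.28% of mature neutrophil-like cells at 1M, 15.6% of neutrophil precursor-like cells at 1.5M, 3.62% of mature neutrophil-like cells at 3M and 1.02% of neutrophil precursor-like cells at 16M. Thinning left out 12 CH-like cells at 3M and 4 at 16M for having fewer UMIs, and none at 1M or 1.5M.

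Ndufa4l2, on chromosome 10 from 127514967 to 127517154, is the paralog of Ndufa4 that is known to be induced by low oxygen and to restrain complex I. In mural-like cells it replaced most of Ndufa4 in every library, with 86.1% (81.7 to 89.9), 87.9% (84.9 to 90.5), 92.1% (87.4 to 95.5) and 83.1% (76.6 to 88.5) of the pair's UMIs. Mural-like cells were the class most reduced by the 5% limit, with 22 cells at 16M against 212 under 30% and 30 at 3M against 76, and with 30% allowed the share at 3M was 69.7%. In CH-like cells it gave 64.8% (63.7 to 65.8) at 1M, 67.4% (67.0 to 67.9) at 1.5M, 26.3% (25.0 to 27.6) at 3M and 89.7% (88.3 to 91.0) at 16M. AD-like cells had 5.31%, 11.02%, 1.40% and 4.27%. Neutrophil-like cells gave 4.41% (mature) at 1M, 11.8% (precursor, the class with low own markers) at 1.5M and 3.55% (mature) at 3M. The AD-like intervals reached these levels or did not exceed them, so the AD-like shares did not stand above the floor. The share depends on Ndufa4 too, and Ndufa4l2 itself stood at 39.1 CPM in AD-like cells at 1M. Whether these AD-like UMIs are background is therefore not settled by the shares. At 16M neutrophil precursor-like cells gave 1.77% (0.946 to 3.01), below AD-like cells. This is another reference class than the mature cells used at 1M and 3M.

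**Figure D2:**
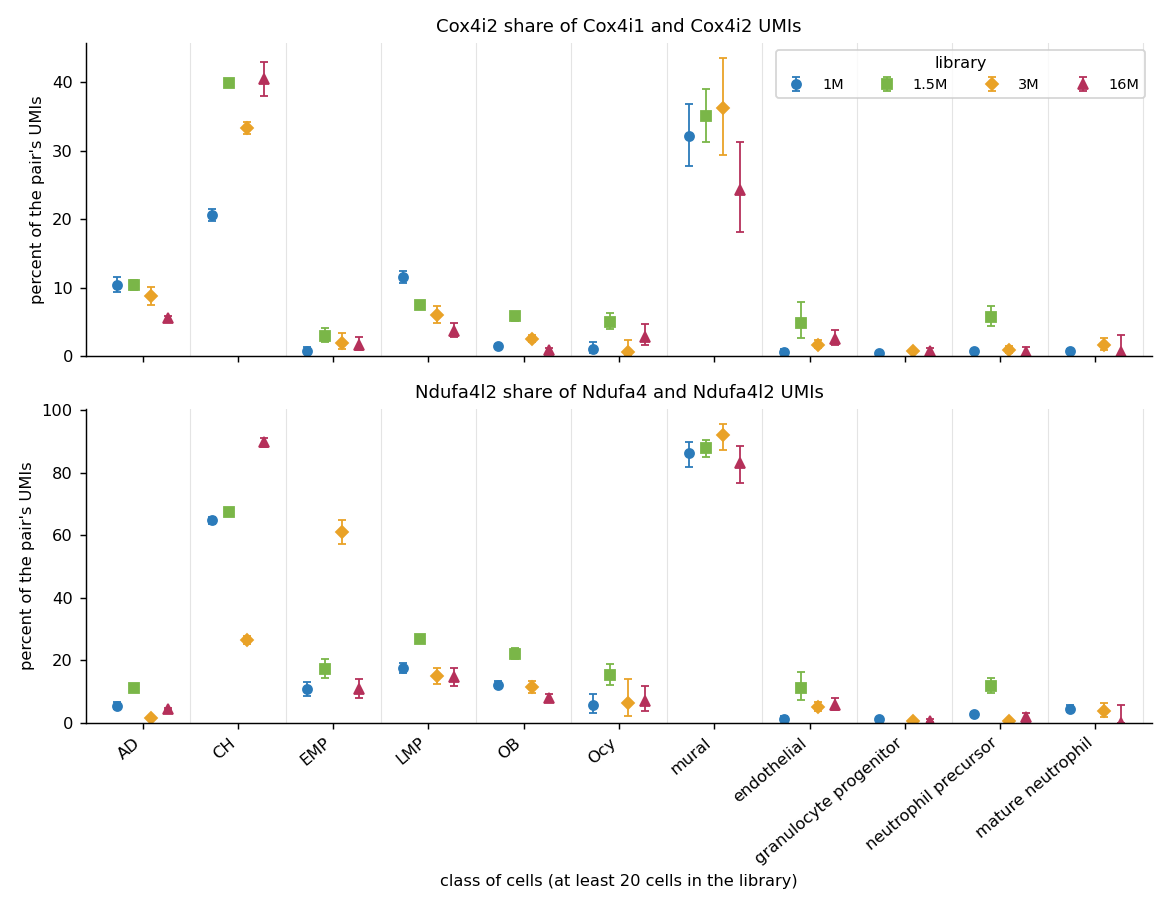
Share of Cox4i2 in the Cox4i1 and Cox4i2 UMIs (top) and of Ndufa4l2 in the Ndufa4 and Ndufa4l2 UMIs (bottom), in percent, for classes of at least 20 cells, with 1 point per library and 95% binomial intervals. CH-like and mural-like cells stand above the other classes for Cox4i2, mural-like cells hold 83.1% to 92.1% Ndufa4l2, and EMP-like cells at 3M stand apart from those of the other libraries, at 61.0%, a value that was 6.25% with a 10% mitochondrial limit.

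The Ndufa4l2 share differed within CH-like cells and within EMP-like cells. At 3M, the CH-like cluster led by Col10a1 and Ihh, genes of hypertrophic and prehypertrophic chondrocytes, had 10.5% Ndufa4l2 (293 cells) against 34.6% in the largest CH-like cluster (491 cells). At 1.5M, the CH-like cluster with the highest Sfrp5 had the lowest shares, 46.6% for Ndufa4l2 and 16.6% for Cox4i2 (187 cells), against 64.1% to 73.4% and 38.8% to 42.9% in the other CH-like clusters. The low cluster of 1.5M also had the lowest summed level of hypoxia response genes there, 838 CPM against 1777 to 2022 CPM, and the low cluster of 3M had 669.8 CPM against 896 and 975 CPM. The orders did not match throughout: the 3M cluster at 975 CPM had 20.1% Ndufa4l2, and the one at 896 CPM had 34.6%. At 1M the cluster with 60.6% had 1833 CPM and the one with 73.5% had 1781 CPM. At 16M the cluster with 93.3% had 1533 CPM and the one with 87.2% had 1163 CPM. The cluster with the most Col10a1 had the lower Ndufa4l2 share at 1M too (60.6% against 73.5%), and at 1.5M its 64.1% was the lowest but for the Sfrp5 cluster, whereas at 16M it had the higher share (93.3% against 87.2%). The low share of the Sfrp5 cluster at 1.5M was not repeated at 1M, where the cluster with more Sfrp5 had the higher share. EMP-like cells gave 10.7%, 17.2%, 61.0% and 10.6% Ndufa4l2 in order of age. The high value of 3M came from 1 cluster of 110 cells with 70.5% (66.6 to 74.2), while the other EMP-like cluster of 3M, which expressed Il33, had 4.12% (51 cells). The EMP-like value of 3M rests on that cluster being in the class: with a limit of 10% mitochondrial UMIs the share was 6.25%, and without regression 6.74%, though it was 61.0% with a limit of 30%, while at 1M coarser clusters (resolution 0.5) gave 62.6%. The mural gene Rgs5 stood at 4.14 CPM in the cluster with 70.5%, against 10664 CPM in mural-like cells of 3M. Hypoxia response genes summed to 925 CPM in that cluster, against 510 CPM in the other EMP-like cluster of 3M.

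The other isoform pairs were used far more narrowly. Cox8b gave 1.72% (0.747 to 3.37) of the subunit 8 UMIs in Ocy-like cells at 1M, 3.47% (2.31 to 4.97) at 1.5M, 2.94% (0.962 to 6.73) at 3M and 2.74% (1.26 to 5.14) at 16M, from 8, 28, 5 and 9 UMIs. All cells kept held 10, 41, 15 and 15 Cox8b UMIs. OB-like cells at 16M had 6 UMIs (0.236%), and CH-like cells had 9 UMIs at 1.5M (0.0405%) and 9 at 3M (0.178%). Ocy-like cells thus had the highest Cox8b share in all 4 libraries, on few molecules in each.

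Cox6b2, known as the testis isoform of subunit 6b, was highest in erythroid-like cells. It gave 23.4% (22.2 to 24.7) of the pair's UMIs at 1M, 16.5% (12.0 to 21.8) at 1.5M, 24.6% (21.5 to 28.0) at 3M and 20.2% (17.5 to 23.1) at 16M. Basophil-like cells had 15.6% at 1M and granulocyte progenitor-like cells 10.1%, 7.21% and 6.38% at 1M, 3M and 16M, against 0.423% to 1.09% in OB-like cells. Cox6a2, the heart and muscle isoform of subunit 6a, reached 3.77% in monocyte-like and 3.84% in basophil-like cells at 1M and 0.892%, 2.29% and 7.66% in granulocyte progenitor-like cells. The 57 Cox6a2 UMIs of granulocyte progenitor-like cells at 16M came from 10 of 171 cells. Cox7a1, the heart and muscle isoform of subunit 7a, reached 1.57% at 1M and 3.98% at 3M in osteoclast-like cells. Cox7b2 and Cox8c were barely counted, with 1 to 9 and 0 to 32 UMIs per library.

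**Figure D3:**
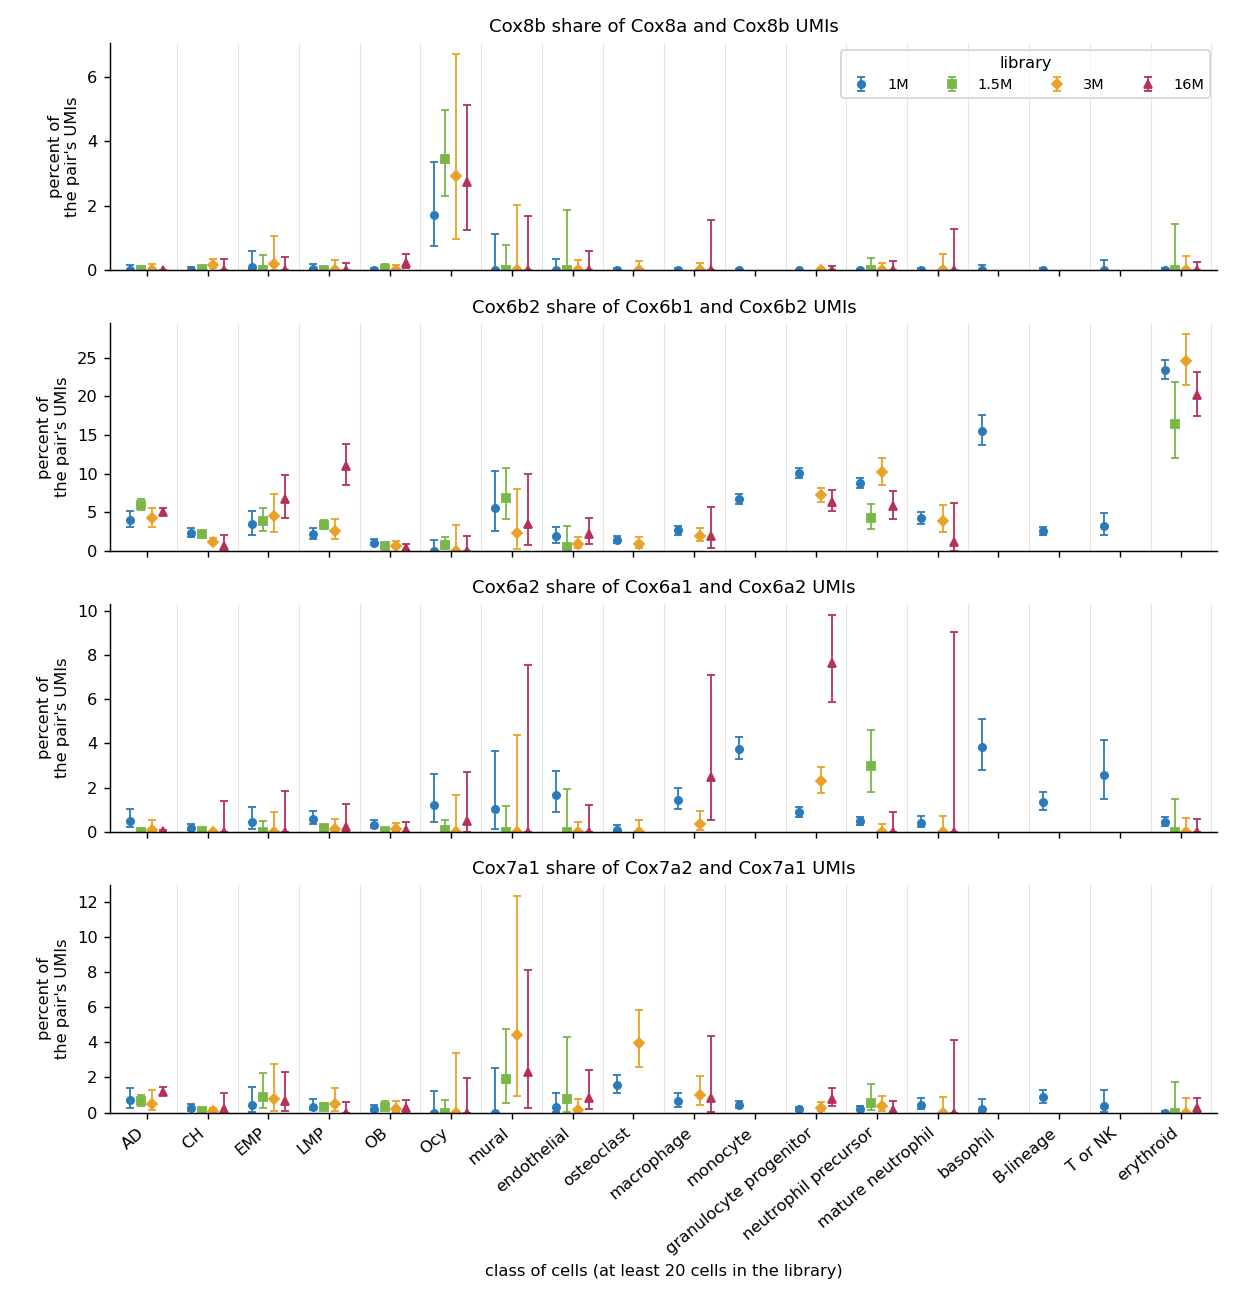
Share of Cox8b, Cox6b2, Cox6a2 and Cox7a1 in the UMIs of each isoform pair, in percent, for classes of at least 20 cells, with 1 point per library and 95% binomial intervals. Ocy-like cells are the highest class for Cox8b (1.72% to 3.47%) and erythroid-like cells for Cox6b2 (16.5% to 24.6%).

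Apart from these isoforms, CH-like cells differed from AD-like cells in few members, with lower levels of some subunits of complexes I and II. At least 1.5-fold higher than in AD-like cells were 3 of 69 nuclear members at 1M, where 13.8% of all genes tested were, 11 of 68 at 1.5M (background 18.0%), 3 of 67 at 3M (background 16.3%) and 3 of 66 at 16M (background 16.0%). At least 1.5-fold lower were 13, 5, 11 and 10 members, against 38.9%, 39.8%, 42.0% and 41.2% of all genes. The shares of members called lay below the background in both directions, and near it only at 1.5M in the higher direction. The median log2 ratio of members was -0.13, 0.07, -0.21 and -0.03, beside -0.35, -0.35, -0.41 and -0.40 over all genes tested.

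Only Cox4i2 and Ndufa4l2 were called higher in CH-like cells of all 4 libraries, and only Ndufs4 and Ndufv1 were called lower in all 4. Ndufv1, the subunit of complex I that oxidizes NADH, stood at 56.5 CPM in CH-like and 99.7 CPM in AD-like cells at 1M, 42.1 and 84.9 CPM at 1.5M, 37.7 and 92.7 CPM at 3M, and 37.0 and 75.6 CPM at 16M. Ndufs4, an accessory subunit of the same arm, had ratios of 0.45 (0.40 to 0.50), 0.57 (0.53 to 0.61), 0.41 (0.35 to 0.47) and 0.42 (0.34 to 0.52). CH-like cells were below AD-like cells for both genes in every library, with intervals below 1. Sdha had ratios of 0.57, 0.56 and 0.62 at 1M, 1.5M and 3M but 1.06 (0.89 to 1.24) at 16M. Ndufa4 had 0.64, 0.69, 0.59 and 0.28, the last at 126 CPM in CH-like and 447 CPM in AD-like cells.

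Most glycolysis genes were higher in CH-like cells. The shares of all genes called, given above, were 13.8% to 18.0% higher and 38.9% to 42.0% lower. Of the glycolysis list, 12 of 14 tested were at least 1.5-fold higher in CH-like than in AD-like cells at 1M, 11 of 14 at 1.5M, 8 of 13 at 3M and 14 of 14 at 16M, with Pkm, which makes pyruvate, at ratios of 5.55, 5.96, 4.55 and 10.2. Of the 11 citrate cycle genes, 0 were higher and 5, 3, 8 and 7 were lower, near or below the background at 1M and 1.5M and above it at 3M and 16M, and the 23 lower calls became 5 at 2-fold or with a minimum of 50 CPM. Of the hypoxia response genes tested, 4 of 6, 5 of 8, 3 of 6 and 5 of 8 were higher and 1, 2, 3 and 1 lower. Of the genes of mitochondrial biogenesis tested, 3 of 5, 5 of 6, 4 of 5 and 4 of 6 were lower. Higher were 0, 0, 1 and 1, the higher gene being Tfb2m, with ratios of 1.70 at 3M and 1.51 at 16M. The medians were 1.24, 1.36, 0.69 and 1.60 on the log2 scale for glycolysis and -0.51, -0.32, -0.74 and -0.63 for the citrate cycle, beside the medians of all genes given above.

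OB-like cells differed from AD-like cells in few members. At 1M, 2 of 69 members were higher and 9 lower (background 8.12% and 52.5%), at 1.5M 1 of 67 and 9 (7.30% and 58.1%), at 3M 2 of 67 and 8 (8.59% and 50.8%), and at 16M 3 of 66 and 5 (10.1% and 54.1%). Ndufa1, an accessory subunit of complex I encoded on the X chromosome, was higher in all 4 libraries: it stood at 297, 380.5, 323 and 327 CPM in OB-like cells against 145, 230, 200 and 151 CPM in AD-like cells. Called lower in all 4 were Cox4i2, Ndufa4, Ndufs4 and Sdha. Sdha stood at 62.0, 40.1, 46.1 and 49.0 CPM in OB-like cells and at 109, 99.6, 86.1 and 88.6 CPM in AD-like cells. The values of the classes did not overlap across libraries for Ndufa1 or Sdha.

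Ocy-like cells had 6 of 68 members higher and 8 lower than AD-like cells at 1.5M (background 11.2% and 44.3%), and 10 of 66 and 3 at 16M (15.1% and 39.1%). Cox6a1, Cox7a2l, Ndufa1, Ndufa6 and Uqcrfs1 were higher in both. Cox7a2l, known to join complexes III and IV into supercomplexes, stood at 510, 460, 554 and 350 CPM in Ocy-like cells in order of age, against 268, 246, 241 and 158 CPM in AD-like cells, ratios of 1.90, 1.87, 2.30 and 2.22. Uqcrfs1, the Rieske iron-sulfur protein of complex III, had ratios of 1.36 (1.10 to 1.68), 1.91 (1.66 to 2.20), 1.97 (1.44 to 2.64) and 1.82 (1.41 to 2.31). The Ocy-like classes of 1M and 3M held only 41 and 32 cells, with 3 of 68 members higher and 13 lower at 1M (background 10.5% and 49.9%) and 8 of 67 and 13 at 3M (17.0% and 44.8%).

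The progenitor classes lay nearest to AD-like cells. EMP-like cells had 2 of 70, 0 of 69, 4 of 68 and 1 of 67 members higher (background 13.8%, 16.4%, 19.3% and 13.2%) and 3, 3, 5 and 1 lower (23.3%, 22.2%, 22.6% and 11.7%). The only member lower in all 4 was Cox4i2, whose direction at 1M and 3M turned with coarser clusters (log2 ratios of 1.00 and 0.29 at resolution 0.5). LMP-like cells had 1 of 69, 1 of 69, 1 of 68 and 2 of 67 members higher (14.3%, 14.5%, 15.5% and 13.2%) and 3, 3, 7 and 6 lower (22.7%, 24.1%, 27.4% and 20.9%). Ndufa4l2 was higher in LMP-like than in AD-like cells in all 4 libraries, at 119, 161, 69.7 and 33.9 CPM against 39.1, 73.4, 10.7 and 19.96 CPM, although with finer clusters (resolution 1.2) its log2 ratio at 3M was -1.04. Ndufs4 was lower in LMP-like cells in all 4.

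Mural-like cells at 1.5M, the library with 63 of them, had 19 of 69 members higher than AD-like cells (background 24.3%) and 1 lower (background 19.2%). The small classes had 9 of 68 higher and 3 lower at 1M (21.2% and 28.8%), 17 of 68 and 3 at 3M (31.1% and 28.6%), and 11 of 68 and 1 at 16M (22.5% and 21.2%). The member that was lower at 1.5M was Ndufa4, at 165 against 593 CPM, and it was also lower in the small mural-like classes of 1M, 3M and 16M, at 174, 132 and 123 CPM. Sdhc, a membrane anchor of complex II, was higher in all 4, with ratios of 1.67 (1.18 to 2.32), 2.56 (1.95 to 3.31), 1.81 (0.94 to 3.20) and 2.13 (1.33 to 3.23), of which only the interval of 3M reached below 1. Endothelial-like cells had 2 of 68 members higher and 8 lower at 1M (background 22.6% and 22.9%), 6 of 67 and 5 at 3M (32.0% and 19.3%), and 1 of 66 and 15 at 16M (24.0% and 22.3%). Cox7a2l was higher in those 3 libraries, with ratios of 1.84, 2.00 and 1.51, and Ndufb2, an accessory subunit of complex I, was lower, with ratios of 0.49, 0.58 and 0.50.

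At 16M the nuclear genes were lower than in each other library in every class compared, and the mitochondrial share was above the mean of the others in every class, though in neutrophil precursor-like and erythroid-like cells it lay within their range. In AD-like cells the nuclear level was 0.649-fold the mean of 1M, 1.5M and 3M, and the mitochondrial share was 3.67% (3.66 to 3.67) against 2.28%, 2.42% and 2.56%, a ratio of 1.52. The ratio of mitochondrial to nuclear UMIs was thereby 3.39 in AD-like cells at 16M and 1.30 to 1.58 in the other libraries. Over the 11 classes with at least 50 cells at 16M and in another library, this ratio was 1.82-fold (CH-like) to 2.89-fold (endothelial-like) that of the others, and the nuclear level 0.547-fold (erythroid-like) to 0.785-fold (Ocy-like). Barcodes above 5% mitochondrial UMIs were removed most often at 16M: 208 OB-like cells remained against 370 with a limit of 30%, 92 endothelial-like cells against 236, and 22 mural-like cells against 212.

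Among nuclear members, 197 of 405 member and class pairs were at least 1.5-fold lower at 16M than the mean of the other libraries and below all of them, and 3 were higher, over the 6 classes with at least 50 cells in every library. By class, 35 of 69 were lower in AD-like cells (background 17.7%), 32 of 66 in CH-like (26.5%), 25 of 69 in EMP-like (19.1%), 41 of 68 in LMP-like (23.9%), 14 of 66 in OB-like (15.3%) and 50 of 67 in neutrophil precursor-like cells (29.3%). The share of members called lower was above the background in each class. Without 1M the count in OB-like cells was 9, and without 1.5M, whose neutrophil precursor-like cells stood highest at 20428 CPM, the count in that class was 31. These 1.5M cells also differed in make-up from the class of that name elsewhere. Their own markers summed to 39177 CPM, against 105045 to 144703 CPM in the other libraries. Hemoglobin genes with S100a8 and S100a9 summed to 73314 CPM, against 234129 to 301077 CPM. Higher were Ndufa4l2 and Sdha in CH-like cells and Cox6b2 in LMP-like cells, where 28.5% and 29.1% of all genes were called higher, and 0 members in the other 4 classes (background 24.0% in AD-like, 30.8% in EMP-like, 20.6% in OB-like and 20% in neutrophil precursor-like cells). Without 3M, 1 member was higher in CH-like cells.

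Lower in all 6 classes were 10 members. The share of all genes that were lower in all 6 is not given, and the classes come from the same 4 libraries. The count thus has no background of its own. The 10 were Ndufb6 and Ndufs8 of complex I, Sdhb and Sdhc of complex II, and Uqcrc1 and Uqcrfs1 of complex III. From complex IV came Cox4i1, Cox5a, Cox6a1 and Cox6b1. Cox6a1, the broad isoform of subunit 6a, differed most, with ratios of 0.222 to 0.357. In AD-like cells it stood at 554, 485, 526 and 147 CPM in order of age, and in CH-like cells at 737, 855, 627 and 164 CPM. Sdhb, the iron-sulfur subunit of complex II, stood at 188, 127, 118 and 70.5 CPM in AD-like cells. In each case the 16M value lay below those of the other 3 libraries.

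Sdha behaved otherwise than Sdhb and Sdhc. It stood at 109, 99.6, 86.1 and 88.6 CPM in AD-like cells, so that its 16M value lay within the range of the others, and at 62.2, 56.2, 53.7 and 93.6 CPM in CH-like cells, where 16M was highest. Ndufa4 stood at 448, 409, 443 and 126 CPM in CH-like cells, a ratio of 0.290, and at 426, 303, 299 and 287 CPM in OB-like cells, a ratio of 0.839. Of the 66 nuclear members tested in all 6 classes, 11 were called in none, among them Ndufs1, the largest subunit of complex I, at 33.9, 26.1, 27.0 and 35.6 CPM in AD-like cells.

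**Figure D4:**
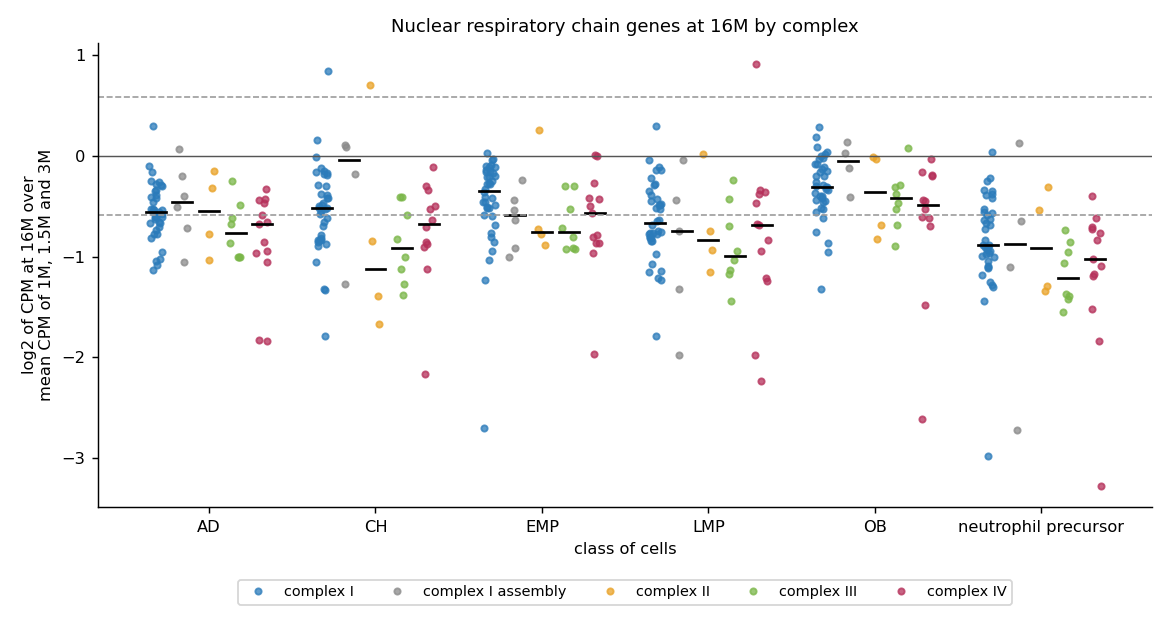
log2 of the level at 16M over the mean level of 1M, 1.5M and 3M for each nuclear member, by class and complex, with 1 point per gene, black bars for medians and dashed lines at 1.5-fold in either direction. Medians lie below 0 for every complex and class shown, and Sdha (complex II) and Ndufa4l2 (complex I) are the points above the upper line in CH-like cells.

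By complex, the median ratio in AD-like cells was 0.681 for complex I, 0.693 for complex II, 0.588 for complex III and 0.628 for complex IV, and all 8 complex III genes were lower in neutrophil precursor-like cells. Cytosolic ribosomal protein genes, matched by symbol together with a few Rps6k kinases, moved in the same direction at 16M: 40 of 89 were lower and 3 higher in AD-like cells, and 52 of 88 and 3 in CH-like cells. The median log2 ratio of members was -0.61 in AD-like, -0.56 in CH-like and -0.32 in OB-like cells, beside 0.03, 0.01 and 0.01 over all genes tested. The citrate cycle list had 1 of 11 lower in AD-like and 5 of 11 in CH-like cells. What part library, gene list or the sort has in these values was not tested.

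The mitochondrial genes at 16M did not move together. In all 6 classes mt-Nd2, mt-Nd3, mt-Nd4l and mt-Nd5, core subunits of complex I, mt-Co2, the subunit of complex IV that receives electrons from cytochrome c, and mt-Atp8, of ATP synthase, were higher, while mt-Nd1, also of complex I, was lower in 3 classes and higher in none. mt-Nd4 and mt-Cytb were higher in 4 classes, mt-Atp6 and mt-Co3 in 1, and mt-Co1 in none. In AD-like cells mt-Nd2 stood at 766, 607, 619 and 2548 CPM in order of age, and mt-Nd3 at 159, 231, 152 and 748 CPM. Both lay far above the range of the other libraries at 16M. By contrast mt-Co1, the catalytic subunit of complex IV, stood at 2571, 3030, 3421 and 3202 CPM, and mt-Nd1 at 1810, 2236, 1981 and 1403 CPM.

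Because these genes are cut from shared precursor transcripts, their proportions are given too. Over the classes of each library, mt-Nd1 made up 7.21% to 8.38% of the 13 genes' UMIs in the other libraries and 3.78% at 16M, mt-Co1 16.3% to 19.0% and 9.91%, and mt-Nd2 2.33% to 2.90% and 6.66%. The other large parts moved less: mt-Atp6 made up 23.5% to 24.8% and 23.2%, mt-Co3 18.2% to 21.7% and 17.1%, and mt-Cytb, the cytochrome b of complex III, 7.82% to 11.3% and 12.2%. For mt-Nd3, mt-Atp8 and mt-Nd6, the only member on the minus strand, every class at 16M stood above every class of the other libraries. The part of the different gene list in these values was not tested.

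**Figure D5:**
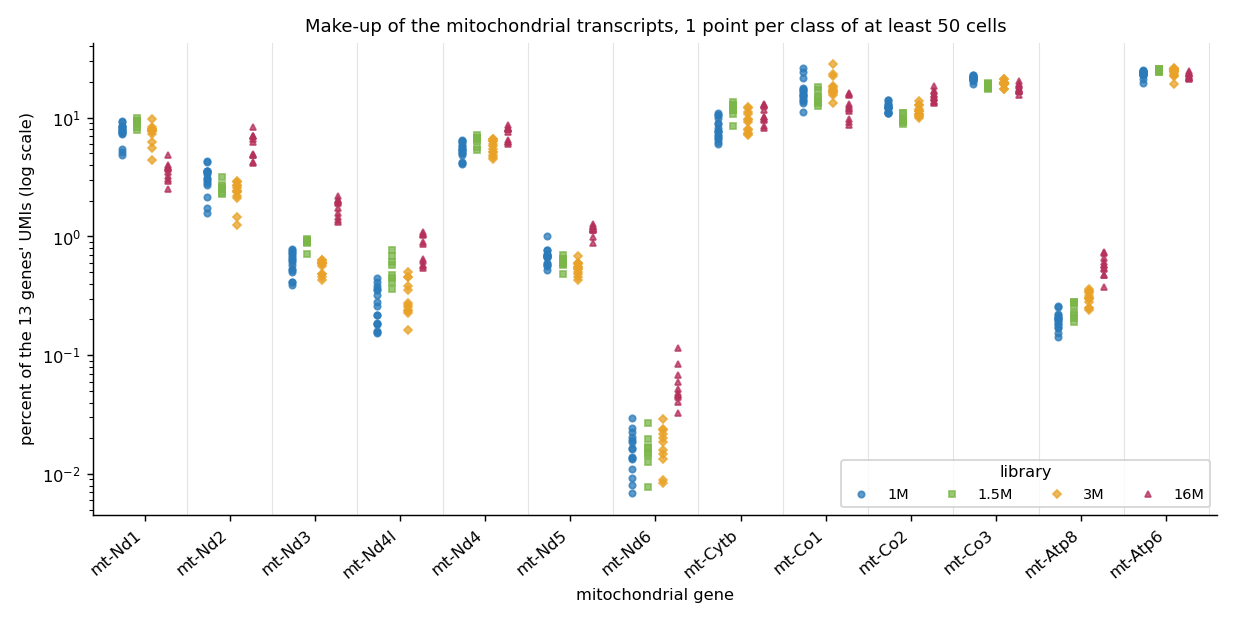
Percent of the 13 mitochondrial genes' UMIs given by each gene, on a log scale, with 1 point per class of at least 50 cells and colours for libraries. At 16M mt-Nd1 and mt-Co1 make up less (3.78% and 9.91% over classes) and mt-Nd2, mt-Nd3, mt-Atp8 and mt-Nd6 more than in the other libraries.

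The make-up also differed between classes of 1 library. At 1M mt-Co1 gave 11.3% of the mitochondrial UMIs in AD-like cells, 17.0% in CH-like cells, 24.0% in neutrophil precursor-like and 26.3% in mature neutrophil-like cells. The same order held at 3M, at 13.4%, 22.5%, 23.5% and 28.2%, and AD-like cells had the lowest mt-Co1 share of all classes in all 4 libraries. mt-Nd1 ran the other way at 1M, from 4.83% in mature neutrophil-like to 9.37% in osteoclast-like cells, and mt-Cytb was higher in AD-like (10.9%) and Ocy-like cells (11.3%) than in neutrophil precursor-like cells (6.19%).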

How the data were processed

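Single-cell RNA-seq libraries of Td+ endosteal bone marrow cells were available from 4 ages. The deposited values are UMI counts per gene and barcode, which the authors made with Cell Ranger 3.0.2 on mm10 with the reporter added, and no normalization was applied before deposit. The annotation release is not given in the sources used here. Counts were processed per library: a barcode was kept with 200 to 6000 genes and no more than 5% of UMIs from the mitochondrial genome, total and mitochondrial UMIs were regressed out, 2000 variable genes, 30 components and 20 neighbours gave Leiden clusters at resolution 0.8 (Python 3.11.15, scikit-learn 1.9.0, igraph 0.11.9, leidenalg 0.10.2), and clusters were named from marker lists. Doublets were handled as an alternative, by leaving out the highest scores. Rules for conflicts between lists were set after seeing the clusters. UMIs were summed per class, scaled to CPM over all UMIs of the class, and given exact Poisson, Clopper-Pearson or conditional binomial 95% intervals (scipy 1.17.1). These cover counting error only.

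A gene was called at 1.5-fold or more among genes with a mean of at least 10 CPM, computed over all 26600 shared genes. At 16M it also had to lie outside the range of 1M, 1.5M and 3M. With 1 library per age no test was run. The calls were also run on simulated counts. The outcome is not given here, so it lends the calls no support. Genes named are the mitochondrial members, the Sdh genes, the isoform pairs, Cox7a2l, and up to 5 members with the largest ratios in each direction per comparison. Members that were called in every library, or in none, were named after their values were seen. No share over all genes is given for calls that held in every library or every class. The members and lists were chosen with earlier results of these data known. Total UMIs per library ran from 32672631 to 108227184. Alternatives were looser mitochondrial limits, other resolutions, folds and minimums, means over cells and no regression. Leaving out single libraries, classes of at least 20 cells, and CPM over the shared genes were added after seeing the data.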

Additional observations from a re-analysis of the deposited data

Results flagged for a closer look

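The share of Ndufa4l2 in the Ndufa4 and Ndufa4l2 UMIs moved in opposite ways between the 3M and 16M libraries in CH-like and EMP-like cells. In CH-like cells it was 3.41-fold higher at 16M than at 3M (89.7% against 26.3%), and in EMP-like cells it was 0.173-fold (10.6% against 61.0%). The difference between the classes was not tested, since each age has 1 library. In EMP-like cells the 3M value came from 1 cluster of 110 cells and became 6.25% with a 10% mitochondrial limit and 6.74% without regression, and in CH-like cells the 3M value was the lowest of the 4 libraries.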

How the results depend on the processing

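No paired analysis was possible because each age has 1 library, so the ages share only replicate number 1, and no replicate could be left out. Classes were compared within each library, and no test over libraries was run. The calls rest on a fold, so the minimum of 10 CPM and the 1.5-fold limit set their number. For AD-like cells at 16M over the other libraries, the mitochondrial share ratio of 1.52 became 1.64 with a 10% limit, 1.66 with a 30% limit, 1.53 as a mean of cells, 1.55 without regression, 1.53 at resolution 1.2 and 1.55 without likely doublets. The nuclear level ratio of 0.649 became 0.658 without mitochondrial UMIs, 0.658 with a 10% limit, 0.662 as a mean of cells, 0.661 without regression, 0.656 at resolution 0.5 and 0.665 without likely doublets. Their ratio of 2.32 became 2.47 (10% limit), 2.55 (30% limit), 2.31 (mean of cells), 2.33 (no regression), 2.30 (resolution 0.5) and 2.35 (resolution 1.2). The nuclear level of osteoclast-like over AD-like cells at 1M, 2.07, became 2.12 with a 10% limit, without regression or without likely doublets, and 1.88 with a 30% limit. At 2-fold, the 197 member and class pairs lower at 16M became 74, the 92 member and library pairs lower in mature neutrophil-like cells 39, the 56 higher and 112 lower in mesenchymal classes over AD-like cells 20 and 34, and the 23 citrate cycle calls lower in CH-like cells 5. With no minimum the 56 became 86. With a minimum of 50 CPM the citrate cycle calls became 5 and the neutrophil calls 59, and the neutrophil calls became 50 with a 10% limit and 54 with a 30% limit or at resolution 0.5, settings that change which cells make up the classes. Directions turned for Cox4i2 in EMP-like over AD-like cells at resolution 0.5 (log2 ratios of 1.00 at 1M and 0.29 at 3M), for Ndufa4l2 in LMP-like over AD-like cells at 3M at resolution 1.2 (-1.04) and for Ndufaf7 in Ocy-like over AD-like cells at 16M as a mean of cells (0.55). The causes were not tested. Leaving 1M, 1.5M or 3M out gave 186 to 206 member and class pairs lower at 16M, and 16M against 3M alone gave 170. Of 1599 alternative values for named members, 1563 kept direction and call and 32 lost the call. Of the shares in CH-like, EMP-like and mural-like cells, 16 of 131 alternative values moved beyond their interval for Cox4i2 and 23 of 120 for Ndufa4l2, apart from CH-like cells at 1.5M. The EMP-like shares moved most: Ndufa4l2 from 61.0% at 3M to 6.25% (10% limit) and 6.74% (no regression) and from 10.7% at 1M to 62.6% (resolution 0.5), and Cox4i2 from 0.784% to 17.6% at 1M and from 1.98% to 10.8% at 3M (resolution 0.5).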
